A study of Mus musculus with 8 samples.

Results

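Levels of 6 chemokine receptor genes were examined in endogenous CD8+ T cells that had been separated by their surface IL-18Rα. The genes were *Cxcr2*, *Cxcr3*, *Cxcr4*, *Cxcr5* and *Cxcr6*, which encode receptors for CXC chemokines, and *Cx3cr1*, which encodes the receptor for the CX3C chemokine. They were selected by gene name, 6 of the 47493 genes in the deposited table. RNA sequencing gave 8 libraries from 4 female C57BL/6 mice aged 6 to 8 weeks. Every mouse had received B16-F10 melanoma cells (200000, day 0), cyclophosphamide (300 mg/kg, day 3), Thy1.1+ Pmel-1 CD8+ T cells carrying a transgenic receptor for a melanoma antigen (2000000, day 5), recombinant human IL-2 (10000 IU daily for 3 days from day 5) and a CD4-depleting antibody (200 μg weekly for 3 weeks from day 10). On day 25, CD8+ cells lacking Thy1.1, which marks the transferred cells, were isolated by beads from spleen and inguinal lymph nodes of each mouse. Cells held on a magnetic column through an IL-18Rα antibody formed the IL-18Rα hi-enriched fraction (n = 4), and the cells that passed through formed the flow-through (n = 4). The fractions therefore shared the tumor and the whole regimen, and neither was a pure population, since the separation was by enrichment on a column.

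Chemokine receptors are G-protein-coupled receptors on the surface of leukocytes that read gradients of secreted chemokines and steer cells into tissues. In CD8+ T cells, CXCR3 and CXCR6 are known as receptors of effector and memory cells that enter inflamed or peripheral tissue, and CX3CR1 marks cytotoxic effector cells. CXCR4 holds cells in bone marrow and lymphoid tissue, CXCR5 leads cells into B-cell follicles, and CXCR2 is best known on neutrophils.

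Of the 6 receptors, *Cxcr3*, *Cxcr6* and *Cx3cr1* rose in the enriched fraction, by 2.87, 2.43 and 2.16 times in the ratio of mean FPKM (fragment values scaled to transcript length and library size). *Cxcr4* and *Cxcr5* did not pass the test without a term for the mouse, and *Cxcr2* was too low to be tested. Differences were tested with limma on log2(FPKM + 1) over the 12166 genes whose mean reached 1 FPKM, which included 5 of the 6 receptors, with a Benjamini-Hochberg adjusted p under 0.05 as the threshold. By this rule 3 of the 5 receptors tested were higher and 0 were lower, while of all genes tested 14.1% were higher and 13.7% were lower. The libraries of the fractions did not overlap for the same 3 receptors, each higher in the enriched fraction, while 16.4% of all genes tested were higher without overlap and 15.9% were lower without overlap. When the fit held a term for each mouse (a block), 4 of the 5 receptors were higher and 1 was lower, against 22.2% and 22.7% of all genes tested.

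**Figure D1:**
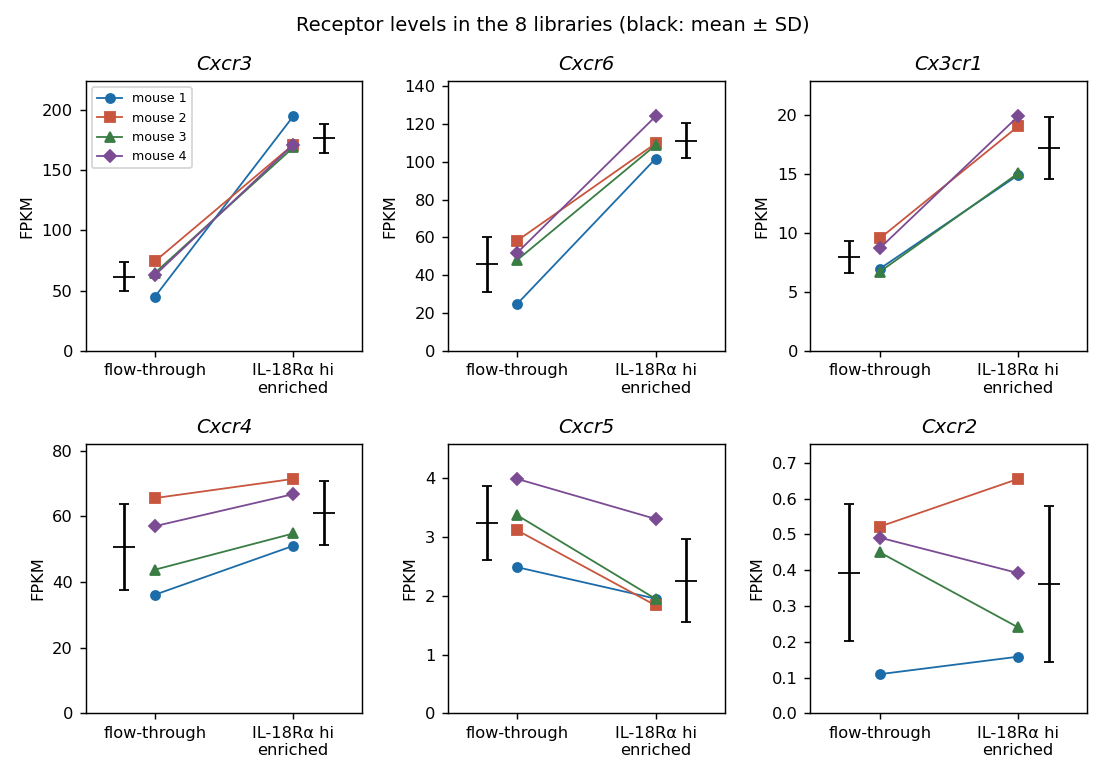
FPKM of each of the 6 receptor genes (y axes, linear and starting at 0) in the flow-through and the IL-18Rα hi-enriched fraction, with 1 line per mouse and black bars for mean ± SD (n = 4). In 4 of 4 mice the enriched value is higher for *Cxcr3*, *Cxcr6* and *Cx3cr1*, with no overlap between fractions, and for *Cxcr4*, with overlap, and lower for *Cxcr5*, with overlap, while *Cxcr2* is higher in 2 mice and lower in 2.

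The labels were checked by *Il18r1*, which encodes IL-18Rα. Flow-through libraries held 22.2 to 37.2 FPKM of it and enriched libraries 106.6 to 116.0 FPKM (log2 fold change 1.85, limma adjusted p = 0.00029). The flow-through thus still held *Il18r1* RNA. Summed FPKM was 656700 to 711700 per library, and 11706 to 12288 genes reached 1 FPKM. The geometric mean of 8 CD8 T-cell genes was 136.8, 252.1, 216.9 and 255.4 FPKM in flow-through replicates 1 to 4. In enriched replicates 1 to 4 it was 276.9, 260.2, 263.5 and 259.8 FPKM. All enriched libraries thus lay above the flow-through, where replicate 1 was the lowest. Of the 8 genes, 1 was higher and 0 lower by the test (median log2 fold change 0.38). For the receptors, and for part of the other genes, results were therefore also read relative to these genes. Counts of cell-type marker genes are on the deposited scale unless stated. RNA of other cell types was present in both fractions. Summed levels of progenitor genes were 141.6 to 173.4 FPKM (flow-through) and 50.1 to 84.6 FPKM (enriched libraries), with 4 of 7 lower and 1, *Flt3*, higher. Erythroid genes summed to 1214 to 4025 and 333.4 to 1976 FPKM, with 3 of 12 lower and 0 higher, or 9 lower under the mouse block. In such bulk libraries, fewer cells of a type and less RNA per cell cannot be told apart.

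The receptors that rose are described first. *Cxcr3* (ENSMUSG00000050232, mm10 chromosome X, 101731535 to 101734269, minus strand, protein-coding) encodes the receptor for the interferon-induced chemokines CXCL9, CXCL10 and CXCL11. It read 44.7, 74.2, 64.6 and 62.7 FPKM in flow-through replicates 1 to 4 and 194.9, 171.3, 168.9 and 171.3 FPKM in enriched replicates 1 to 4. The lowest enriched library stood well above the highest flow-through library, and the widest gap within a mouse was in mouse 1, which had both the lowest flow-through and the highest enriched value. Means were 61.5 ± 12.3 and 176.6 ± 12.2 FPKM (SD, n = 4). On the log2 scale *Cxcr3* rose by 1.53 (standard error, SE, 0.14, limma adjusted p = 0.00056), and 0.847% of the genes tested had a larger log2 fold change. *Cxcr3* moved from place 1760 by mean level in flow-through libraries to place 550 in enriched libraries.

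*Cxcr6* (ENSMUSG00000048521, chromosome 9, 123806475 to 123811760, plus strand, protein-coding) encodes the receptor for CXCL16, a chemokine made as a membrane protein. It read 24.8, 58.3, 48.0 and 51.9 FPKM in flow-through replicates 1 to 4 and 101.8, 109.8, 108.9 and 124.2 FPKM in enriched replicates 1 to 4. All enriched libraries lay above all flow-through libraries and flow-through replicate 1 was the lowest, as it was for the T-cell genes. Means were 45.8 ± 14.6 and 111.2 ± 9.40 FPKM, and the rise on the log2 scale was 1.33 (standard error 0.24, limma adjusted p = 0.0058). Without flow-through replicate 1 the log2 fold change was 1.06 (limma adjusted p = 0.00039). In the annotation *Cxcr6* overlaps *Fyco1* on the other strand, and Cufflinks by default does not use the strand, so reads of the pair could not be told apart where they overlap.

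*Cx3cr1* (ENSMUSG00000052336, chromosome 9, 119901616 to 120069879, minus strand, protein-coding) encodes the receptor for fractalkine, the product of *Cx3cl1*. It read 6.94, 9.51, 6.68 and 8.67 FPKM in flow-through replicates 1 to 4 and 14.9, 19.0, 15.03 and 19.9 FPKM in enriched replicates 1 to 4. The fractions did not overlap, and mice 2 and 4 were the higher ones in both. Means were 7.95 ± 1.36 and 17.2 ± 2.61 FPKM, and the rise on the log2 scale was 1.02 (standard error 0.14, limma adjusted p = 0.0021). The ratio within a mouse spanned only 2.0 to 2.29, the narrowest span of the 3 receptors that rose, while that of *Cxcr3* ran from 2.31 to 4.36 and that of *Cxcr6* from 1.88 to 4.10. The annotated gene, with its longest isoform, overlaps 9 other genes, among them *Wdr48* and *Csrnp1*, so its level is uncertain where those genes are read.

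Both *Cx3cr1* and *Cxcr3* are also expressed by cells other than CD8+ T cells, and marker genes of several such cells differed between the fractions. Of 11 NK-cell genes tested, 9 were higher and 0 lower, with sums of 108.4 to 294.1 FPKM in flow-through libraries and 341.8 to 684.0 FPKM in enriched ones. *Ncr1*, which encodes the NK receptor NKp46, read 0.623 to 2.68 and 7.33 to 27.1 FPKM. Of 10 monocyte and macrophage genes tested, 6 were higher and 0 lower (sum 131.8 to 440.7 and 427.5 to 975.5 FPKM), which became 9 with the mouse block, 3 without enriched replicate 2 and 2 without enriched replicate 4. The monocyte receptor gene *Csf1r*, at 5.14 to 18.4 and 8.76 to 24.2 FPKM, was higher in 4 of 4 mice, and passed with the mouse block (limma adjusted p = 0.0027) but not without it (limma adjusted p = 0.34). Of 6 dendritic-cell genes, 5 were higher and 0 lower (sum 14.98 to 26.1 and 34.9 to 73.3 FPKM). γδ T-cell genes were higher for 5 of 6 tested (sum 8.54 to 22.7 and 36.5 to 72.5 FPKM), and both CD4 T-cell genes were higher (sum 2.11 to 4.58 and 16.6 to 22.6 FPKM). Of the invariant NKT and MAIT cell genes, *Zbtb16* was higher and *Traj18* and *Traj33* were listed at 0 in all 8 libraries (sum 0.158 to 1.63 and 0.892 to 2.33 FPKM). *Trav11* was at 1.08 FPKM in flow-through replicate 4, most of the highest flow-through sum, and at 0 elsewhere. Values of 0 for such receptor segments do not show that the cells were absent. Relative to the T-cell genes, 7 NK-cell, 4 monocyte and macrophage, 4 dendritic-cell and 4 γδ T-cell genes were higher and 0 lower. The part of these cells in the receptor levels was not tested.

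Promoter sequences are shown for the 3 receptors that rose and for *Cxcr4*, which did not pass without a mouse term. They run 5′ to 3′ on the gene's strand from 250 bases before to 20 bases after the RefSeq start (build GRCm38.p6), and capitals mark matches to the motifs searched. The windows are chrX:101734128-101734397 (minus strand), chr9:123806227-123806496 (plus), chr9:120068277-120068546 (minus) and chr1:128592280-128592549 (minus).
Cxcr3: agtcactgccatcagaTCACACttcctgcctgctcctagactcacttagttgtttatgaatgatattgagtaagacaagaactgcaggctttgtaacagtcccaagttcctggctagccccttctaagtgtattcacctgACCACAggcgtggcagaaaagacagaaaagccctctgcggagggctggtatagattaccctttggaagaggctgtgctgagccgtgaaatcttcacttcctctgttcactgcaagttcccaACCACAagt
Cxcr6: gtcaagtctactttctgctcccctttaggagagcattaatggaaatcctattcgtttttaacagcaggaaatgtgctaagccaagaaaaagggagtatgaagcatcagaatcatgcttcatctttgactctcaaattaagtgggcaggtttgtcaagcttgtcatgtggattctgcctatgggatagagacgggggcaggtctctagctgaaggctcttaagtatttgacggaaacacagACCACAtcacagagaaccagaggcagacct
Cx3cr1: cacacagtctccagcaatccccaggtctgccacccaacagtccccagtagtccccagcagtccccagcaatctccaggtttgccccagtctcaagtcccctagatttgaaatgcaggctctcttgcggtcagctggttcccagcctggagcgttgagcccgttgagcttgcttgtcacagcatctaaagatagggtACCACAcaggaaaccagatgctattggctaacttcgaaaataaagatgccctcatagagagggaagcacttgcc
Cxcr4: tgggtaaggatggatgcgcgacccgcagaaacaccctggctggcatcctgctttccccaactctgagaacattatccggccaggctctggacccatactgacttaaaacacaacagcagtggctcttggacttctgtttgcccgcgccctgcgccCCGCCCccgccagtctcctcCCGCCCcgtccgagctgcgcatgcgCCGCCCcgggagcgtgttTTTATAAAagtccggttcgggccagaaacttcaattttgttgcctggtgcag

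The motifs were searched on both strands of the whole RefSeq window, which reaches 50 bases after the start, and 5 of the 6 receptors had one. The RUNX motif (TGTGGT or ACCACA) matched in *Cxcr3* at -110 and 12 relative to the start, in *Cxcr6* at -10 and in *Cx3cr1* at -54, and not in *Cxcr4* or *Cxcr2*. It matched in 16.8% of 32851 promoters of that length. The T-box motif (TCACAC or GTGTGA) matched in *Cxcr3* at -234 and in 14.5% of promoters. *Cxcr4* held a TATA box (TATAAA or TTTATA, 13.6% of promoters) whose matches on the 2 strands overlap at -32 and -30, and 3 GC boxes (GGGCGG or CCGCCC, 35.7% of promoters) at -95, -75 and -50. The AP-1 motif (TGANTCA, 7.81% of promoters) matched in none of the 5. Base composition ran from 44.3% G or C in *Cxcr6* and 49.3% in *Cxcr3* to 54.0% in *Cxcr2*, 54.3% in *Cx3cr1* and 59.3% in *Cxcr4*, beside a median of 52.7% over all promoters. These matches describe letters in the sequence, and binding was not measured.

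*Cxcr4* (ENSMUSG00000045382, chromosome 1, 128588199 to 128592293, minus strand, protein-coding) encodes the receptor for CXCL12, which retains leukocytes in bone marrow. It read 36.2, 65.6, 43.8 and 57.0 FPKM in flow-through replicates 1 to 4 and 51.1, 71.5, 54.8 and 66.8 FPKM in enriched replicates 1 to 4. The fractions overlapped, yet the enriched library was the higher one in 4 of 4 mice, with ratios from 1.09 in mouse 2 to 1.41 in mouse 1. Means were 50.6 ± 13.2 and 61.0 ± 9.66 FPKM. On the log2 scale the difference of 0.29 (SE 0.19, 95% interval -0.15 to 0.73) did not pass without a mouse term (limma adjusted p = 0.29), and passed with the mouse as a block (SE 0.077, 95% interval 0.10 to 0.47, limma adjusted p = 0.0226). Over the other alternatives tried, the adjusted p ran from 0.11 to 0.85. Relative to the T-cell genes the sign turned, to a log2 fold change of -0.05 (limma adjusted p = 0.85).

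*Cxcr5* (ENSMUSG00000047880, chromosome 9, 44511787 to 44561877, minus strand, protein-coding) encodes the receptor for CXCL13, the chemokine of B-cell follicles. It read 2.49, 3.11, 3.37 and 3.99 FPKM in flow-through replicates 1 to 4 and 1.95, 1.84, 1.95 and 3.31 FPKM in enriched replicates 1 to 4. The enriched library was the lower one in 4 of 4 mice, but enriched replicate 4 stood apart from the other enriched libraries and within the range of the flow-through. Means were 3.24 ± 0.622 and 2.26 ± 0.699 FPKM. On the log2 scale the difference of -0.39 (SE 0.17, 95% interval -0.78 to 0.000435) did not pass without a mouse term (limma adjusted p = 0.121). It passed with the mouse as a block (limma adjusted p = 0.0287), without enriched replicate 4 (log2 fold change -0.53, limma adjusted p = 0.0434) and relative to the T-cell genes (-0.63, limma adjusted p = 0.0486). Over the remaining alternatives the adjusted p ran from 0.073 to 0.26. Part of *Cxcr5* overlaps *Bcl9l* on the other strand, so its level carries the same uncertainty as that of *Cxcr6*.

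*Cxcr5* is also a receptor of B cells and follicular helper T cells, and the markers of both were read beside it. Enriched replicate 4, the highest enriched library for *Cxcr5*, was also the highest one for 7 of 10 B-cell genes, among them *Ms4a1*, at 4.64 FPKM beside 0.668 to 2.35 FPKM. In the flow-through, replicate 4 was again the highest for *Cxcr5*, but for only 3 of the 10 B-cell genes. Of 7 B-cell genes tested, 1 was higher and 0 lower, or 2 and 1 with the mouse block, with sums of 27.2 to 71.2 FPKM in flow-through libraries and 42.7 to 89.0 FPKM in enriched ones. Of 6 plasma-cell genes, 1 was higher and 0 lower (sum 329.5 to 1306 and 606.0 to 1570 FPKM), and 6 were higher under the mouse block. Follicular helper genes were higher for 4 of 5 tested (sum 52.4 to 98.5 and 180.8 to 188.4 FPKM), with *Icos*, a costimulatory receptor, at 28.1 ± 6.51 and 88.2 ± 4.33 FPKM. The study counts *Icos* among genes of T-cell activation, differentiation or migration, so it does not mark follicular helper cells alone. *Bcl6*, the regulator of follicular helper cells, was at 4.29 ± 1.05 and 6.23 ± 1.54 FPKM and passed with the mouse block (limma adjusted p = 0.0071) but not without it (limma adjusted p = 0.14). The part of these cells in the level of *Cxcr5* was not tested.

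*Cxcr2* (ENSMUSG00000026180, chromosome 1, 74153989 to 74161246, plus strand, protein-coding) encodes a receptor for CXCL1, CXCL2 and related chemokines that draw neutrophils. It read 0.110, 0.522, 0.450 and 0.491 FPKM in flow-through replicates 1 to 4 and 0.158, 0.655, 0.240 and 0.392 FPKM in enriched replicates 1 to 4. Every value was under 1 FPKM, the fractions overlapped throughout, and the enriched library was higher in 2 mice and lower in 2. Means were 0.393 ± 0.191 and 0.361 ± 0.218 FPKM, and a fit without the filter put the difference on the log2 scale at -0.04 (SE 0.14, limma adjusted p = 0.894). Of 10 neutrophil genes tested, 0 were higher and 0 lower (sum 396.0 to 2282 FPKM in flow-through libraries and 425.9 to 2725 FPKM in enriched ones), and with the mouse block 4 were higher and 1 was lower. *Ly6g*, a defining neutrophil gene, was at 0.0795 to 0.447 and 0 to 0.297 FPKM. *Mpo*, a granule gene of their precursors, was at 252.0 to 1394 and 203.4 to 1175 FPKM. With the mouse block *Mpo* was the 1 lower gene (log2 fold change -0.27, limma adjusted p = 0.0139). *Elane*, from the same list, was at 110.5 to 726.3 and 139.6 to 833.8 FPKM. It was 1 of the 4 higher with the mouse block (log2 fold change 0.25, limma adjusted p = 0.0171). The others were *S100a8* (1.51, limma adjusted p = 0.0035), *Mmp8* (0.73, limma adjusted p = 0.0070) and *Csf3r* (0.45, limma adjusted p = 0.0069). *S100a8* was at 11.6 to 95.3 and 46.9 to 408.4 FPKM. Replicate 2 was the highest of each fraction for *Cxcr2*.

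**Figure D2:**
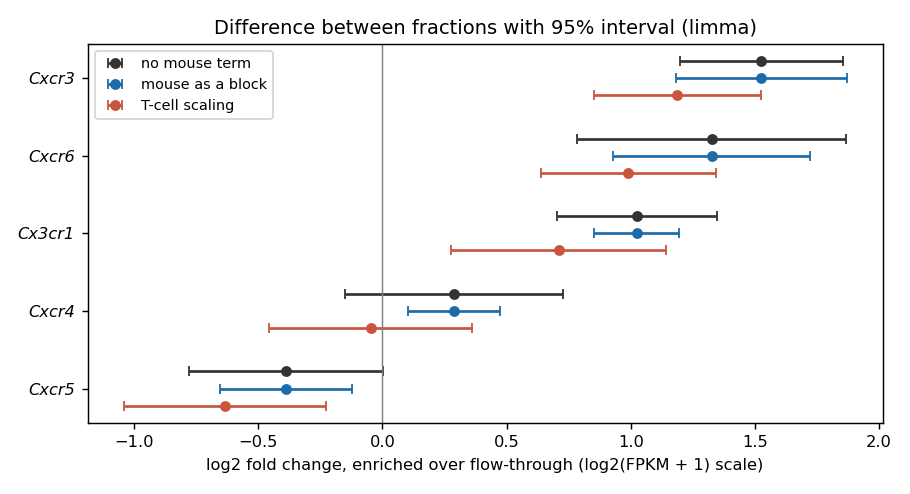
Log2 fold change of the 5 receptors tested (x axis, enriched over flow-through on the log2(FPKM + 1) scale) with 95% interval from limma, without a mouse term, with the mouse as a block, and relative to the T-cell genes. Intervals of *Cxcr3*, *Cxcr6* and *Cx3cr1* lie above 0 in all 3 fits, and the point of *Cxcr4* moves from 0.29 to -0.05 with T-cell scaling.

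Since the geometric mean of the T-cell genes was lower in the flow-through, most of all in replicate 1, receptor levels were also expressed relative to it. The unit was a percentage of the geometric mean of the 8 CD8 T-cell genes, so this scale also takes out their difference between the fractions. *Cxcr3* was at 29.1 ± 3.38% in flow-through libraries and 66.6 ± 2.68% in enriched libraries. *Cxcr6* was at 20.9 ± 2.19% and 42.0 ± 4.53%, and *Cx3cr1* at 3.83 ± 0.875% and 6.51 ± 1.14%. *Cxcr4*, at 23.7 ± 3.00% and 23.1 ± 4.20%, differed by less than the spread between mice on this scale. *Cxcr5* was at 1.54 ± 0.238% and 0.855 ± 0.278%, and *Cxcr2* at 0.172 ± 0.0615% and 0.138 ± 0.0853%. In limma with this scaling, log2 fold changes were 1.19 for *Cxcr3* (adjusted p = 0.0020), 0.99 for *Cxcr6* (adjusted p = 0.0057) and 0.71 for *Cx3cr1* (adjusted p = 0.0419). The scaling moved the median over all genes tested from -0.02 to -0.33, and relative to that median the values were 1.52, 1.32 and 1.04, beside 1.54, 1.34 and 1.04 without it. For *Cxcr4* the value relative to the median was 0.28 with the scaling and 0.31 without, and for *Cxcr5* it was -0.31 and -0.37.

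The order of the receptors by FPKM, a unit that allows for transcript length, differed between the fractions by the exchange of *Cxcr4* and *Cxcr6*. In the flow-through the order of means was *Cxcr3*, *Cxcr4*, *Cxcr6*, *Cx3cr1*, *Cxcr5* and *Cxcr2*. *Cxcr4* lay within the spread of both *Cxcr3* and *Cxcr6*. Within libraries, *Cxcr3* was above *Cxcr4* in 4 of 4, by 1.10 to 1.48 times, and above *Cxcr6* in 4 of 4, by 1.21 to 1.80 times. *Cxcr6* was above *Cxcr4* in 1 of 4 flow-through libraries (ratios 0.687 to 1.10) and in 4 of 4 enriched libraries (1.54 to 1.99). In the enriched fraction the order was *Cxcr3*, *Cxcr6*, *Cxcr4*, *Cx3cr1*, *Cxcr5* and *Cxcr2*, with no overlap between neighbours.

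The make-up of the set was then compared. Summed FPKM of the 6 receptors was 115.2, 211.2, 166.9 and 184.7 in flow-through replicates 1 to 4 and 364.7, 374.0, 349.8 and 385.9 in enriched replicates 1 to 4. Enriched libraries were thus close to each other and well above the flow-through. *Cxcr3* took 33.9% to 38.8% of the sum in flow-through libraries and 44.4% to 53.4% in enriched libraries. *Cxcr4* took 26.2% to 31.4% and 14.0% to 19.1%, and *Cxcr5* 1.47% to 2.16% and 0.491% to 0.856%, so the shares of both were lower without overlap. The share of *Cxcr6* was 21.5% to 28.8% and 27.9% to 32.2%, and that of *Cx3cr1* was 4.003% to 6.02% and 4.08% to 5.15%, and both overlapped. Shares sum to a whole, so a larger share of 1 receptor lowers those of the others.

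**Figure D3:**
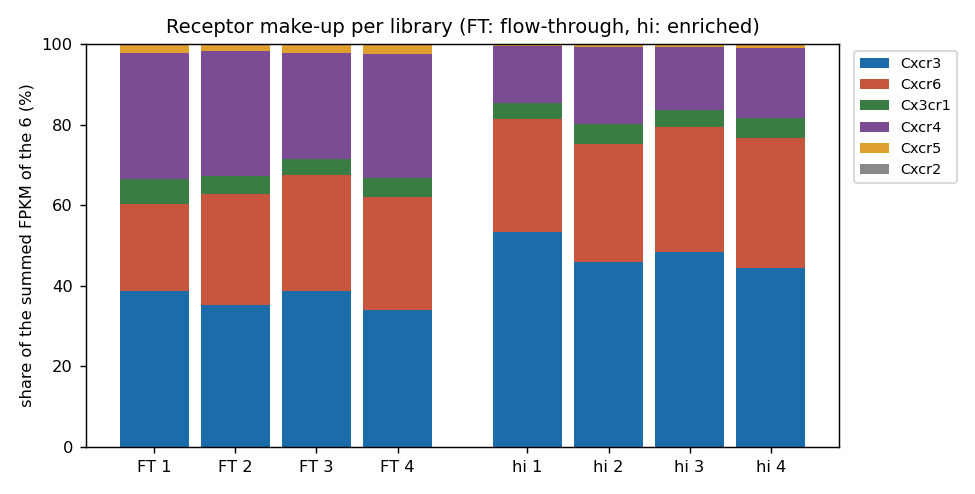
Share of the summed FPKM of the 6 receptors (y axis, percent) held by each receptor in the 4 flow-through (FT) and 4 enriched (hi) libraries, as stacked bars. The *Cxcr3* segment grows from 33.9% to 38.8% in the flow-through to 44.4% to 53.4% in the enriched fraction, and the *Cxcr4* segment shrinks from 26.2% to 31.4% to 14.0% to 19.1%.

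Genes with the profile most like each receptor over the 8 libraries were sought among 8657 genes whose mean reached 5 FPKM. Likeness was the root mean square difference of log2(FPKM + 1), each gene centred on its own mean, and it is a description over libraries that share mice and fractions. The nearest to *Cxcr3* were *Anxa2* (0.068), *Il9r* (0.080) and *Icos* (0.086), beside a spread of 0.788 of *Cxcr3* about its own mean. *Anxa2*, which encodes a membrane-binding annexin, was at 124.6 FPKM on average in flow-through libraries and 367.3 FPKM in enriched ones. The nearest to *Cxcr6* were *Casp1* (0.086), *Amica1* (0.092) and *Ly6a* (0.096), beside a spread of 0.744. *Casp1* encodes the protease that matures interleukin-18, and was at 18.7 and 43.1 FPKM. The nearest to *Cx3cr1* were *H1f0* (0.097), *Ptger4* (0.107) and *Zbtb7b* (0.123), beside a spread of 0.545. *Ptger4*, a prostaglandin E receptor gene, was at 15.5 and 31.1 FPKM. *Itm2b* (0.068), *Stard5* (0.071) and *Ggta1* (0.073) were nearest to *Cxcr4* (spread 0.305), and *Gtpbp6* (0.117), *Prpf39* (0.119) and *Fnbp4* (0.12) to *Cxcr5* (spread 0.292).

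Ligands of the receptors were low, as 4 of 13 passed the filter of 1 FPKM. Of these, 2 were higher and 0 lower in the enriched fraction, with a median log2 fold change of 0.50 beside -0.02 over all genes tested. Leaving out flow-through replicate 3 left 1 called, and leaving out enriched replicate 2, 3 or 4 left 0. *Cxcl10*, a ligand of CXCR3, read 2.80, 5.18, 5.87 and 6.54 FPKM in flow-through replicates 1 to 4 and 7.24, 10.5, 11.1 and 11.8 FPKM in enriched replicates 1 to 4. Enriched libraries were all above the flow-through, and mouse 1 was lowest in both (log2 fold change 0.90, SE 0.23, limma adjusted p = 0.0218). *Cxcl9*, the other called ligand and also one of CXCR3, was at 0.370 ± 0.259 and 2.44 ± 1.37 FPKM, with overlap (log2 fold change 1.24, limma adjusted p = 0.0238). Relative to the T-cell genes *Cxcl10* no longer passed (limma adjusted p = 0.0605).

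The remaining ligands were not called on the deposited scale, either for a mean under 1 FPKM or by the test. *Cxcl16*, the ligand of CXCR6, was at 0.0704 to 0.331 FPKM in flow-through libraries and 0.577 to 1.83 FPKM in enriched ones, and *Cx3cl1* was at 0.0355 to 0.106 and 0.230 to 0.542 FPKM. Both were low in all libraries, with no overlap between fractions, and in the fit without the filter both were higher (limma adjusted p = 0.0204 and 0.0156). *Cxcl12* did not exceed 0.0615 FPKM and *Cxcl13* did not exceed 0.215 FPKM in any library. Of the CXCR2 ligands, *Cxcl2* was at 2.08 ± 1.19 and 2.18 ± 0.887 FPKM and *Cxcl5* was listed at 0 in all 8 libraries. *Pf4*, a platelet chemokine, was at 9.45 ± 2.90 and 7.22 ± 1.36 FPKM (limma adjusted p = 0.33). It was lower relative to the T-cell genes (log2 fold change -0.61, limma adjusted p = 0.0385), beside a median of -0.33 over all genes tested on that scale.

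**Figure D4:**
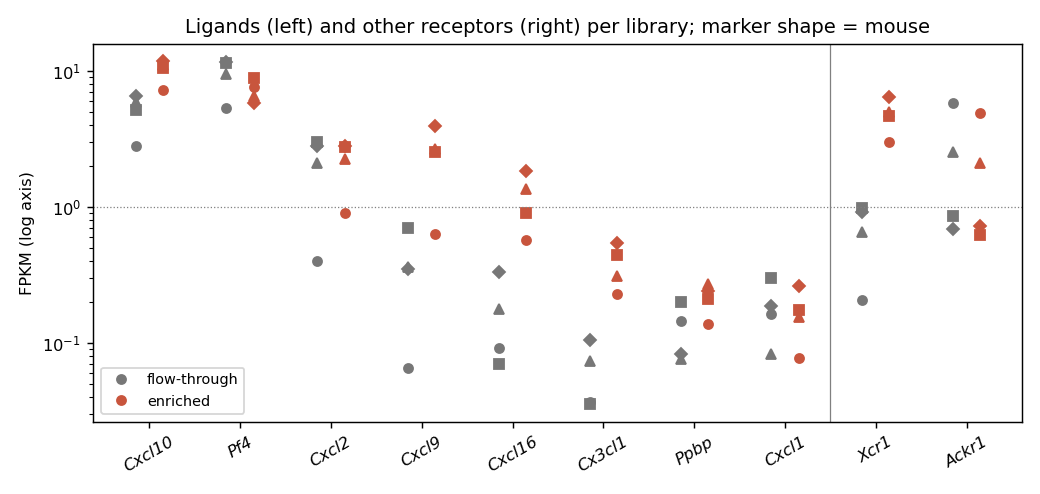
FPKM (y axis, log scale, values of 0 not drawn, dotted line at 1 FPKM) of ligand genes and of the receptor genes *Xcr1* and *Ackr1* in each library, gray for flow-through and red for enriched, with marker shape for the mouse. *Cxcl10* and *Xcr1* show no overlap between fractions, and *Cx3cl1*, *Ppbp* and *Cxcl1* lie below 1 FPKM in all libraries.

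Of 4 other receptors for CXC and XC chemokines, 2 passed the filter, 1 of them was higher and 0 were lower. That was *Xcr1*, the receptor for XCL1, which lies 40555 bases beyond the end of *Cxcr6* (chromosome 9, 123852315 to 123862029, minus strand) and was named for this position after its values were seen. *Xcr1* read 0.208, 0.978, 0.654 and 0.913 FPKM in flow-through replicates 1 to 4 and 3.02, 4.63, 4.96 and 6.38 FPKM in enriched replicates 1 to 4. The fractions did not overlap (log2 fold change 1.76, SE 0.22, limma adjusted p = 0.0017). *Xcr1* is a marker of a dendritic-cell subset, and *Clec9a*, a marker of the same subset, was at 1.13 to 3.67 and 5.29 to 13.3 FPKM. The atypical receptor gene *Ackr1* was at 2.47 ± 2.36 and 2.09 ± 1.999 FPKM and did not pass (limma adjusted p = 0.87). *Ackr3*, which encodes an atypical receptor for CXCL12, and *Cxcr1* stayed under 1 FPKM in all libraries.

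Genes that carry the signal from chemokine receptors to the cytoskeleton and integrins were examined next. Of 20 such genes tested, 14 were higher and 0 lower (median log2 fold change 0.38). The number higher was 8 without flow-through replicate 3 or enriched replicate 4, and 9 without enriched replicate 2 or 3. Relative to the T-cell genes 1 was higher and 0 lower (median 0.04, beside -0.33 over all genes tested). *Gng2*, which encodes a G-protein γ subunit, rose from 30.9 ± 4.75 to 67.8 ± 4.74 FPKM (1.12 on the log2 scale with a standard error of 0.12, limma adjusted p = 0.00094), and was the gene that still passed relative to the T-cell genes (limma adjusted p = 0.0160). *Pik3cg*, the lipid kinase subunit driven by G-protein βγ, rose from 13.2 ± 2.15 to 24.4 ± 1.41 FPKM (log2 fold change 0.85). *Coro1a*, *Elmo1* and *Dock2*, which act on actin and Rac during migration, had log2 fold changes of 0.75, 0.73 and 0.64.

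Of 15 genes that turn G-protein-coupled receptors off, 2 were higher and 1 was lower (median log2 fold change 0.44). The block for the mouse raised these numbers to 10 and 3, and T-cell scaling gave 0 and 2. *Rgs3* rose from 26.6 ± 6.52 to 47.1 ± 2.64 FPKM (log2 fold change 0.83, limma adjusted p = 0.0094), and *Adrbk1*, the receptor kinase GRK2, from 167.2 ± 28.5 to 224.5 ± 10.1 FPKM (log2 fold change 0.44, limma adjusted p = 0.0324). *Rgs10* fell from 109.6 ± 6.27 to 71.4 ± 4.51 FPKM (-0.61 on the log2 scale with a standard error of 0.074, limma adjusted p = 0.0015), with no overlap. RGS proteins speed the return of G-protein α subunits to their resting state.

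Among 11 transcription factors of effector, memory and helper T cells that were tested, 5 were higher and 0 lower (median log2 fold change 0.45). *Tbx21* encodes T-bet, a T-box factor known to act on *Cxcr3*, and read 10.9, 18.6, 15.7 and 18.9 FPKM in flow-through replicates 1 to 4 and 61.3, 49.7, 50.02 and 51.7 FPKM in enriched replicates 1 to 4. As for *Cxcr3*, mouse 1 held the lowest flow-through and the highest enriched value (log2 fold change 1.70, SE 0.17, limma adjusted p = 0.00065). *Runx3*, a RUNX factor of CD8+ T cells, rose from 36.5 ± 5.19 to 54.1 ± 1.99 FPKM (log2 fold change 0.57, limma adjusted p = 0.0058). *Prdm1*, which encodes Blimp-1, and *Hif1a* rose with log2 fold changes of 1.18 and 0.69. Relative to the T-cell genes 3 of the 11 were higher and 1 was lower, while *Runx3* (limma adjusted p = 0.34) and *Hif1a* (limma adjusted p = 0.12) did not pass. The lower one was *Tcf7*, at 320.5 ± 86.0 and 283.2 ± 21.3 FPKM. Its log2 fold change on that scale was -0.48 (limma adjusted p = 0.0486), beside a median of -0.33 over all genes tested. On the deposited scale *Tcf7* did not pass (limma adjusted p = 0.63). *Zbtb16*, also higher in the deposited scale, stayed under 5 FPKM.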

How the data were processed

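The authors extracted RNA from both fractions, prepared stranded poly(A) libraries for paired-end sequencing of 150 bases and, per the submitters' processing notes, used TopHat, Cufflinks 2.1.1 and the mm10 genome. The deposited FPKM values are estimates of the authors normalized to transcript length and library size, and the annotation release is not given in the sources used here. Low values showed no whole-read steps, so depth is unknown and no counting interval was given. There were 0 columns of per-sample values left unused. GENCODE M21 held 98.9% of the gene identifiers, 95.4% of these under the same name, and coordinates came from that annotation.

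Groups and replicate numbers came from the labels. Differences were tested in R 4.3.3 with limma 3.58.1 (variance trend, two-sided) on log2(FPKM + 1), a scale that understates changes of low genes. Same-numbered libraries deviated together (r = 0.31 to 0.66 across genes, beside -0.60 to 0.41 for other numbers), so the numbers were taken to mark the mouse, and blocked values are given beside receptors, named genes and list counts that the block moved across the threshold or by over 1.5 times. Alternatives were pseudocounts of 0.1 and 0.5, no filter, a filter of 5 FPKM, median scaling, T-cell scaling, no variance trend and leaving out libraries. The fit was tested on simulated data. The receptors and gene lists were chosen with earlier results of these data known. Besides the receptors, named genes were up to 5 per direction in each pathway list with the largest change among called genes whose higher fraction averaged 5 FPKM or more, up to 2 defining genes per marker list, any gene needed for the level of the ligands, and the 3 genes most like each receptor. Which markers to name, and the additions *Xcr1*, *Cxcl9*, *Zbtb16*, *Tcf7*, *Elane*, *S100a8*, *Mmp8*, *Csf3r* and *Trav11*, were chosen after their values were seen. Tables were made with Python 3.11.15 and pandas 2.3.3. List counts and sums include a gene that is not reported here.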

Additional observations from a re-analysis of the deposited data

Results flagged for a closer look

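Among 40 groups of 4 libraries examined, 4 held a library far from the other 3, by a gap to its nearest neighbour above Dixon's 95% limit for 4 samples, and chance gives about 1 such group in 20. *Cxcr3* was at 194.9 FPKM in enriched replicate 1, with the other enriched libraries at 168.9 to 171.3 FPKM. *Tbx21* stood apart in the same library, at 61.3 FPKM beside 49.7 to 51.7 FPKM. *Cxcr5* was at 3.31 FPKM in enriched replicate 4, with the others at 1.84 to 1.95 FPKM. *Gng2* was at 23.9 FPKM in flow-through replicate 1, with the others at 32.6 to 33.8 FPKM.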

How the results depend on the processing

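*Cxcr3*, *Cxcr6* and *Cx3cr1* kept their direction and passed the limma test under all 17 alternatives, with log2 fold changes of 1.19 to 1.62, 0.99 to 1.46 and 0.71 to 1.11, and 3 receptors were higher when any 1 library was left out. The number of lower receptors was 1 with T-cell scaling and 0 to 1 when 1 library was left out. *Cxcr5* was the receptor called, at -0.63 with T-cell scaling, and over left-out libraries its log2 fold change was -0.53 to -0.31, called only without enriched replicate 4. *Cxcr4* reversed to -0.05 with T-cell scaling and was at 0.14 to 0.42 over left-out libraries, not called in any. Under the replicate block for the mouse, *Cxcr4* (0.29) and *Cxcr5* (-0.39) passed and the number of lower receptors was 1, while calls of the other receptors did not change. For all genes the block gave 2705 higher and 2763 lower, T-cell scaling gave 521 and 1036, and leaving out 1 library gave 1107 to 1813 and 939 to 1780. The smallest counts came without enriched replicate 2 (1115 and 958), enriched replicate 4 (1107 and 971) and flow-through replicate 3 (939 lower). Of the other pathway genes, 24 were higher and 1 lower. The block gave 3 lower, T-cell scaling 6 higher and 4 lower, and leaving out 1 library 15 to 27 higher and 1 to 4 lower, with 15 higher without enriched replicate 4 and 2 or 4 lower without flow-through replicates 2 or 1. Leaving out both libraries of mouse 1, chosen after seeing the data, gave 2 lower. The cause of these changes was not tested. Without 1 library, erythroid genes lower were 1 to 5, progenitor genes lower 2 to 4 and plasma-cell genes higher 1 to 3. Counts within single lists stayed within 1.5 times in 542 comparisons and moved further in 70. A filter of 5 FPKM gave no value for *Cxcr5*, and *Cxcr2* had a value only without the filter. Depth is unknown, so precision at low FPKM could not be set.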
